A study of Mus musculus with 3 samples.

Results

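The genes described here are 39 genes of DNA replication and mitosis, taken as 22 replication genes and 17 mitotic genes. They were chosen by name: every probe set whose only gene symbol in the array's annotation is one of the 39 names was used. This gave 84 probe sets, 52 for the replication genes and 32 for the mitotic genes, of 34958 probe sets with a single symbol, which cover 18194 genes. All 39 genes were measured, 12 of them by 1 probe set and 27 by several. No measured value entered the choice of names. The names were nevertheless put together with earlier results of these arrays known.

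A cell copies its genome once per division. In the phase before synthesis the origin recognition complex, Cdc6 and Cdt1 load the ring-shaped Mcm helicase onto DNA, which is called licensing, and the helicase is later switched on together with the GINS complex and Mcm10. Polymerases, the sliding clamp and a supply of deoxynucleotides then carry out synthesis. In mitosis, kinases such as Cdk1, Plk1 and the aurora kinases drive chromosome condensation and spindle assembly, and a checkpoint holds the cell until each kinetochore is attached. In muscle precursors these genes are on while the cells divide and are turned off when myoblasts leave the cycle to form myotubes. Genes of synthesis are known targets of E2F factors, and genes of mitosis are known to be held off in resting cells by the DREAM complex, which binds the cell cycle genes homology region (CHR).

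Expression was measured on 3 Affymetrix mouse arrays, each carrying total RNA of a C2C12 line, an established mouse myoblast line. Each line carried a short hairpin RNA (shRNA) directed at 1 of the forkhead transcription factors FoxO1, FoxO3 and FoxO4, and the lines were grown in DMEM with puromycin from colonies screened for the strongest depletion. There was 1 array per line, so hairpin, colony and array cannot be told apart, and no p-value, standard error or replicate spread can be given. A control RNAi line entered through the authors' deposited ratio of the FoxO1 line to it.

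The labels were checked first. Foxo1 itself read 2778 on the array labelled FoxO1, against 563 on FoxO3 and 1827 on FoxO4, at its brightest probe set. It was thus highest on the array where it should have been depleted, and the same held at each of its other probe sets. At that probe set the authors' deposited log2 ratio of the FoxO1 line to control was 1.2 and was called increased. The other Foxo1 probe sets had ratios of 1.3, 1.7 and -0.2, all called not changed. Foxo3 read 1357 on FoxO1, 1047 on FoxO3 and 1016 on FoxO4 at its brightest probe set, and so was not lowest on the array labelled FoxO3. Another Foxo3 probe set, at 2380 on FoxO1, 1573 on FoxO3 and 386 on FoxO4, was lowest on FoxO4. The dimmest, at 174 on FoxO1, 82.0 on FoxO3 and 96.4 on FoxO4, was lowest on FoxO3. Foxo4 was lowest on the FoxO4-labelled array at its brightest probe set, with 1799 on FoxO1, 345 on FoxO3 and 80.4 on FoxO4, but highest there at its other one, with 188 on FoxO1, 163 on FoxO3 and 763 on FoxO4. The FoxO1 label is therefore borne out by no Foxo1 probe set, and the probe sets of Foxo3 and of Foxo4 disagree among themselves. Arrays are named by their label throughout, and "FoxO3" or "FoxO4" beside a value stands for the array so labelled. The myoblast markers Myod1, Myf5, Des, Cdh15, Itga7 and Pax7 were above the array's median signal in 5 of 6 cases on the FoxO1-labelled array, 5 on FoxO3 and 4 on FoxO4, and Pax7 was below it on all 3. The median signal per array was 462.0 on FoxO1, 387 on FoxO3 and 398 on FoxO4. A difference below is log2 of one array's signal minus log2 of another's, after signals under an array's 20th percentile were raised to it, which is called the floor. The floor was 81.2 on FoxO1, 73.1 on FoxO3 and 77.3 on FoxO4. A gene's difference is taken from the median over its probe sets. Signals are quoted for a gene's brightest probe set, which for genes with several probe sets need not match that difference. The difference at the brightest probe set is added where it lies on the other side of 0 or of the threshold from a difference printed for a named gene. The threshold is 2-fold, a log2 value of 1. The only measure of error in these data is the disagreement of probe sets: over 3765 genes with a pair of bright probe sets, the FoxO1 minus FoxO3 differences of the pair lay apart with an SD of 2.02, the FoxO1 minus FoxO4 differences with 2.07 and the FoxO3 minus FoxO4 differences with 1.96. For 1 probe set the SD was 1.43, 1.46 and 1.39 in the same order. Single genes with differences inside the wider spread, that between 2 probe sets, are given as values only.

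Replication genes were low on the array labelled FoxO1. Of the 22, 15 were at least 2-fold lower than on FoxO3 and 0 at least 2-fold higher, where 17.4% of all 18194 genes were lower and 21.3% higher by that much. Their median difference was -1.61, beside 0.14 for all genes. Against FoxO4, 14 of 22 were at least 2-fold lower and 0 higher, where 16.9% of all genes were lower and 20.4% higher. That median was -1.35, beside 0.07 for all genes. By the brightest probe set, 15 of 22 were at least 2-fold lower than on FoxO3 and 1, Tyms, was higher. Of all genes, 18.1% were lower and 20.8% higher by that summary. Against FoxO4, 12 of 22 were then lower and 2, Orc1 and Tyms, higher, where 16.4% and 20.1% of all genes were. The medians were -1.69 and -1.09. In RNA from whole cultures, fewer dividing cells and less of each RNA per cell cannot be told apart.

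Mitotic genes were also lower on the FoxO1-labelled array, by less in the median. Against FoxO3, 9 of 17 were at least 2-fold lower and 1 was higher, where 17.4% of all genes were lower and 21.3% higher. The median was -1.18. Against FoxO4, 5 of 17 were at least 2-fold lower and 1 was higher, where 16.9% of all genes were lower and 20.4% higher. That median was -0.55. With only the brightest probe set of each gene, all 17 mitotic genes were lower on FoxO1 than on FoxO3, 12 of them at least 2-fold, where 18.1% of all genes were lower by that much. By the same summary 6 of 17 were at least 2-fold lower than on FoxO4 and 0 higher, where 16.4% of all genes were lower and 20.1% higher, and the medians were -1.25 and -0.77. Whether replication and mitotic genes differ from each other was not tested.

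The arrays labelled FoxO3 and FoxO4 lay closer together. Of the replication genes, 6 of 22 were at least 2-fold higher on FoxO3 than on FoxO4 and 3 were lower, where 17.9% of all genes were higher and 18.6% lower. The median was 0.60, beside -0.08 for all genes. Of the mitotic genes, 3 of 17 were higher and 0 lower, with a median of 0.11. The share of mitotic genes that were higher is near the background. By the brightest probe set the replication counts were 9 of 22 higher and 1 lower, where 18.9% of all genes were higher and 18.3% lower.

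**Figure D1:**
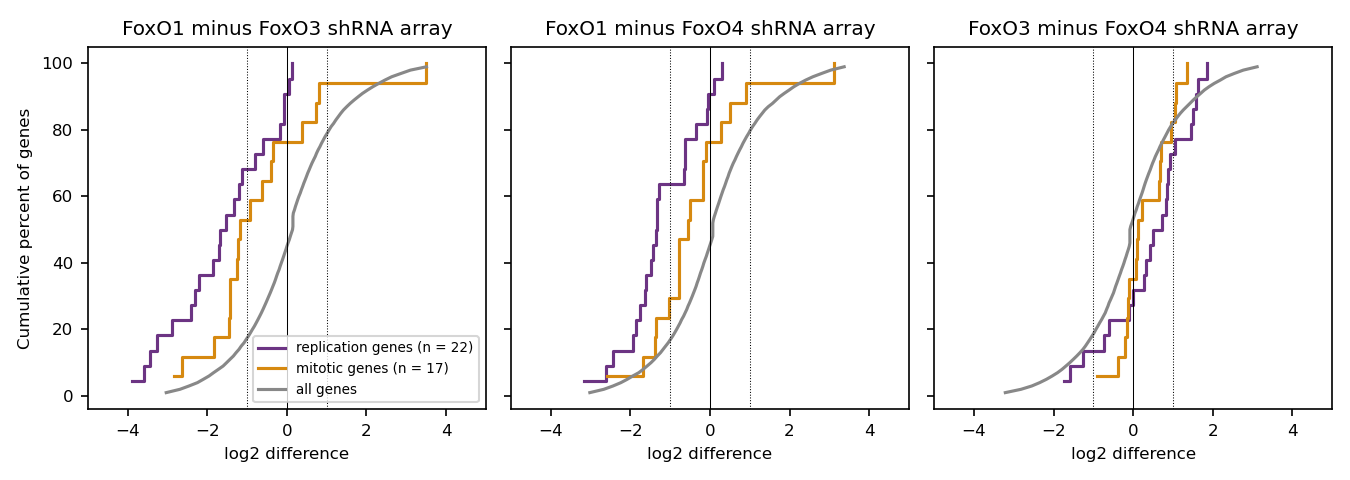
Cumulative percent of genes (vertical axis) against the log2 difference between arrays (horizontal axis), for the 22 replication genes, the 17 mitotic genes and all genes, in 3 panels: FoxO1 minus FoxO3, FoxO1 minus FoxO4 and FoxO3 minus FoxO4. Dotted lines mark 2-fold. In the first panel the median lies at -1.61 for replication genes, -1.18 for mitotic genes and 0.14 for all genes, and in the third panel at 0.60, 0.11 and -0.08.

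Among the licensing factors, Cdc6, the ATPase that joins the origin recognition complex to load the helicase, had a signal of 64.2 on the FoxO1-labelled array, against 979 on FoxO3 and 734 on FoxO4. Only the FoxO1-labelled array was under its floor, and the difference counted from that floor was -3.59 against FoxO3 and -3.18 against FoxO4. Cdt1, which brings the Mcm ring to origins, had 2268 on the FoxO1-labelled array, against 12492 on FoxO3 and 7553 on FoxO4. Its differences were -1.86 and -1.87, and 2 of its 3 probe sets were lower on FoxO1 than on either other array. The remaining one, dim on both other arrays, read 526 on FoxO1, against 18.1 on FoxO3 and 76.1 on FoxO4, and so went the other way. Orc1, the largest subunit of the origin recognition complex, had 979.5 on the FoxO1-labelled array, against 1444 on FoxO3 and 339 on FoxO4. It was lower on FoxO1 than on FoxO3 at both probe sets, with -1.54 over both and -0.56 at the brightest. Against FoxO4 the Orc1 difference was 0.31 over both probe sets and 1.53 at the brightest, where FoxO1 was thus over 2-fold higher.

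The promoters of Cdt1, Mcm3, Mcm5 and Mcm7 are printed as examples. These genes were at least 2-fold lower on FoxO1 than on both other arrays by the median over probe sets and hold E2F motifs. Cdc6 meets the same description, with 1 E2F match, and is not printed. Pcna, Rfc5 and Tk1 were also that low on FoxO1 and held no E2F match. Each window runs from 250 bases before to 50 bases after the annotated start in RefSeq, build GRCm38.p6, read 5′ to 3′ on the gene's strand. Capitals mark E2F motifs, that is TTCCCGC or TTGGCGC or TTCGCGC or TTGCCGC on either strand, where overlapping matches run together. Cdt1 lies at chr8:122567765-122568064 (plus strand), Mcm3 at chr1:20820263-20820562 (minus strand), Mcm5 at chr8:75109259-75109558 (plus strand) and Mcm7 at chr5:138171834-138172133 (minus strand), the last being 1 of 2 annotated starts.
Cdt1: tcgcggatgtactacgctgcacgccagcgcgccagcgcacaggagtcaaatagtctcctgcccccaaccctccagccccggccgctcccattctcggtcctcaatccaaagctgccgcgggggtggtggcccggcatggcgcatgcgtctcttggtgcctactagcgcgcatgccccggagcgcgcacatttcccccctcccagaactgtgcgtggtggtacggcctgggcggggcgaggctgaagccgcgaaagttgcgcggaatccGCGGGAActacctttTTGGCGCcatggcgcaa
Mcm3: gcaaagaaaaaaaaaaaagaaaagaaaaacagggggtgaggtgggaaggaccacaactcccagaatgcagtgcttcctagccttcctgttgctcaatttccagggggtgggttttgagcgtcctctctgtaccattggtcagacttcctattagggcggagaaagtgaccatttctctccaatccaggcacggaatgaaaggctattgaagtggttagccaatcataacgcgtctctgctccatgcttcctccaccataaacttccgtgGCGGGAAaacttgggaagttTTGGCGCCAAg
Mcm5: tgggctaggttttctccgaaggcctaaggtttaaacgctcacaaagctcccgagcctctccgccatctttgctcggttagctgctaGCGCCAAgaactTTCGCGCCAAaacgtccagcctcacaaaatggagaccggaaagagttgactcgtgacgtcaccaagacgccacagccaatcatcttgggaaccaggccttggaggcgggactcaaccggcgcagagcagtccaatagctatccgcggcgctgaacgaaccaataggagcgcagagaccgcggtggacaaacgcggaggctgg
Mcm7: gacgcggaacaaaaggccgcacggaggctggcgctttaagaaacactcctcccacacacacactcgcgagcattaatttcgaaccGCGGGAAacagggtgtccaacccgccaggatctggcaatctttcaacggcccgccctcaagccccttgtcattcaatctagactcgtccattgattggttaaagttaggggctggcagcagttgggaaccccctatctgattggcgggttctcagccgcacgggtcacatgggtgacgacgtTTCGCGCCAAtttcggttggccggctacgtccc

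In these windows Mcm3 held 3 E2F matches, all within the transcribed 50 bases, and Cdt1 held 2, also after the start. The 3 matches of Mcm5 began at -164, -152 and -149 from the start. Mcm7 had 1 upstream match and 2 overlapping matches just after the start, beside a CHR motif left in lower case. A match is a run of letters and does not show that a factor binds there.

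The Mcm2 to Mcm7 proteins form the hexameric replicative helicase. All 6 genes were lower on FoxO1 than on FoxO3 by both summaries. Of all 18194 genes, 8187 were lower by the median over probe sets. Mcm4 had 1076 on the FoxO1-labelled array, against 11442 on FoxO3 and 3394 on FoxO4, with differences of -2.89 and -1.27. Mcm3 had 918 on the FoxO1-labelled array, against 5757 on FoxO3 and 1871 on FoxO4, and all 5 of its probe sets were lower on FoxO1 than on each other array. Mcm7 had 6385 on the FoxO1-labelled array, against 29253 on FoxO3 and 17147 on FoxO4, and all 4 of its probe sets moved the same way, with differences of -2.42 and -1.48. For these 3 subunits the FoxO1-labelled array was lowest and FoxO3 highest at the brightest probe set. Mcm5 had 1241 on the FoxO1-labelled array, against 4762 on FoxO3 and 1672 on FoxO4, where the difference against FoxO3 was -1.94 at the brightest and -3.28 over 3 probe sets. Another Mcm5 probe set read 148 on FoxO1, against 7044 on FoxO3 and 3552 on FoxO4. Against FoxO4 the Mcm5 difference was -1.77 over the probe sets and -0.43 at the brightest. The size of the Mcm5 difference therefore depends on which probe set is read, while those 2 give the same order of the arrays. The remaining Mcm5 probe set read 492 on FoxO1, against 279 on FoxO3 and 550 on FoxO4, and so was higher on FoxO1 than on FoxO3.

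Mcm2 and Mcm6 were nearer to even. Mcm2 had 2472 on the FoxO1-labelled array, against 4221 on FoxO3 and 2407 on FoxO4, with a difference of -1.12 against FoxO3 and of -0.63 against FoxO4. At the brightest probe set these were -0.77 and 0.04. Mcm6 had 3858 on the FoxO1-labelled array, against 7578 on FoxO3 and 5589.6 on FoxO4, with differences of -0.79 and -0.07. Another Mcm6 probe set went the other way, at 855 on FoxO1, against 72.4 on FoxO3, under the floor, and 112 on FoxO4. Neither Mcm2 nor Mcm6 reached 2-fold against FoxO4 by either summary, and Mcm6 did not reach it against FoxO3 either. Gins1, a subunit of the GINS complex that travels with the helicase, had 58.2 on the FoxO1-labelled array, against 2399.8 on FoxO3 and 978 on FoxO4. Both of its probe sets were under the floor on FoxO1, and the difference against FoxO3 was -3.43 over both and -4.89 at the brightest. Mcm10, which helps to activate the loaded helicase, had 1055 on the FoxO1-labelled array, against 3757 on FoxO3 and 1699 on FoxO4, a difference of -1.83 against FoxO3 there but only -0.18 over its 3 probe sets. Over the 11 licensing and helicase genes, 9 were at least 2-fold lower on FoxO1 than on FoxO3 and 7 lower than on FoxO4. Of all genes, 17.4% and 16.9% were. The medians of the 11 were -2.30 and -1.43.

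Of the genes for the clamp and its loader, Pcna, the sliding clamp that tethers polymerases, had 6683 on the FoxO1-labelled array, against 16900.5 on FoxO3 and 25582 on FoxO4. Its differences were -1.34 and -1.94 at its only probe set, and FoxO4 was the highest array. The clamp loader subunits did not share an order. Rfc5 had 184 on the FoxO1-labelled array, against 2727 on FoxO3 and 999 on FoxO4, and its difference of -3.89 against FoxO3 was the lowest of the 39 genes by the median over probe sets. Rfc3 had 395 on the FoxO1-labelled array, against 343 on FoxO3 and 2077 on FoxO4, so that it was low on both FoxO1 and FoxO3, with a FoxO3 minus FoxO4 difference of -1.74. Rfc4 had 932 on the FoxO1-labelled array, against 1076 on FoxO3 and 852 on FoxO4, and none of its 3 differences passed 2-fold by either summary.

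Of the polymerase genes, Pole, the catalytic subunit of the leading-strand polymerase epsilon, had 1452 on the FoxO1-labelled array, against 4730.2 on FoxO3 and 2270.3 on FoxO4, a difference of -1.70 against FoxO3 and -0.64 against FoxO4. Prim1, the catalytic subunit of primase, had 2457 on the FoxO1-labelled array, against 4974 on FoxO3 and 5499 on FoxO4, with -1.19 against FoxO3. Against FoxO4 the Prim1 difference was -0.35 over both probe sets and -1.16 at the brightest, so that it passed 2-fold by the second summary only. Pola1, the catalytic subunit of polymerase alpha, had 1051 on the FoxO1-labelled array, against 1038 on FoxO3 and 1379.9 on FoxO4. At that probe set the arrays lay within 2-fold of each other, with -0.39 against FoxO4, while the difference over both probe sets was -1.34.

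All 4 genes of deoxynucleotide supply were lowest on FoxO1 by the median over probe sets, and 3 of 4 at the brightest probe set. FoxO1 was lowest in 28.3% and 28.5% of all genes by these summaries. Tk1, which salvages thymidine, had 1281 on the FoxO1-labelled array, against 4099.5 on FoxO3 and 3279 on FoxO4, with differences of -1.68 and -1.36. Rrm2, the small subunit of ribonucleotide reductase, had 8929 on the FoxO1-labelled array, against 24821 on FoxO3 and 10313 on FoxO4, and all 3 of its probe sets were lower on FoxO1 than on each other array. Its difference was -2.21 against FoxO3 and -0.63 against FoxO4. Rrm1, the large subunit, had 2457 on the FoxO1-labelled array, against 8309 on FoxO3 and 8106 on FoxO4, and its 3 probe sets were likewise all lower on FoxO1, although the median over them put FoxO3 close to FoxO1 at -0.07, beside -1.76 at the brightest. Tyms, which makes thymidylate, had 696 on the FoxO1-labelled array, against 173 on FoxO3 and 268 on FoxO4, differences of 2.01 and 1.38 at that probe set. The remaining 3 Tyms probe sets were dim, each under the floor on at least 1 array, and the differences over all 4 were -0.60 and -1.33.

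**Figure D2:**
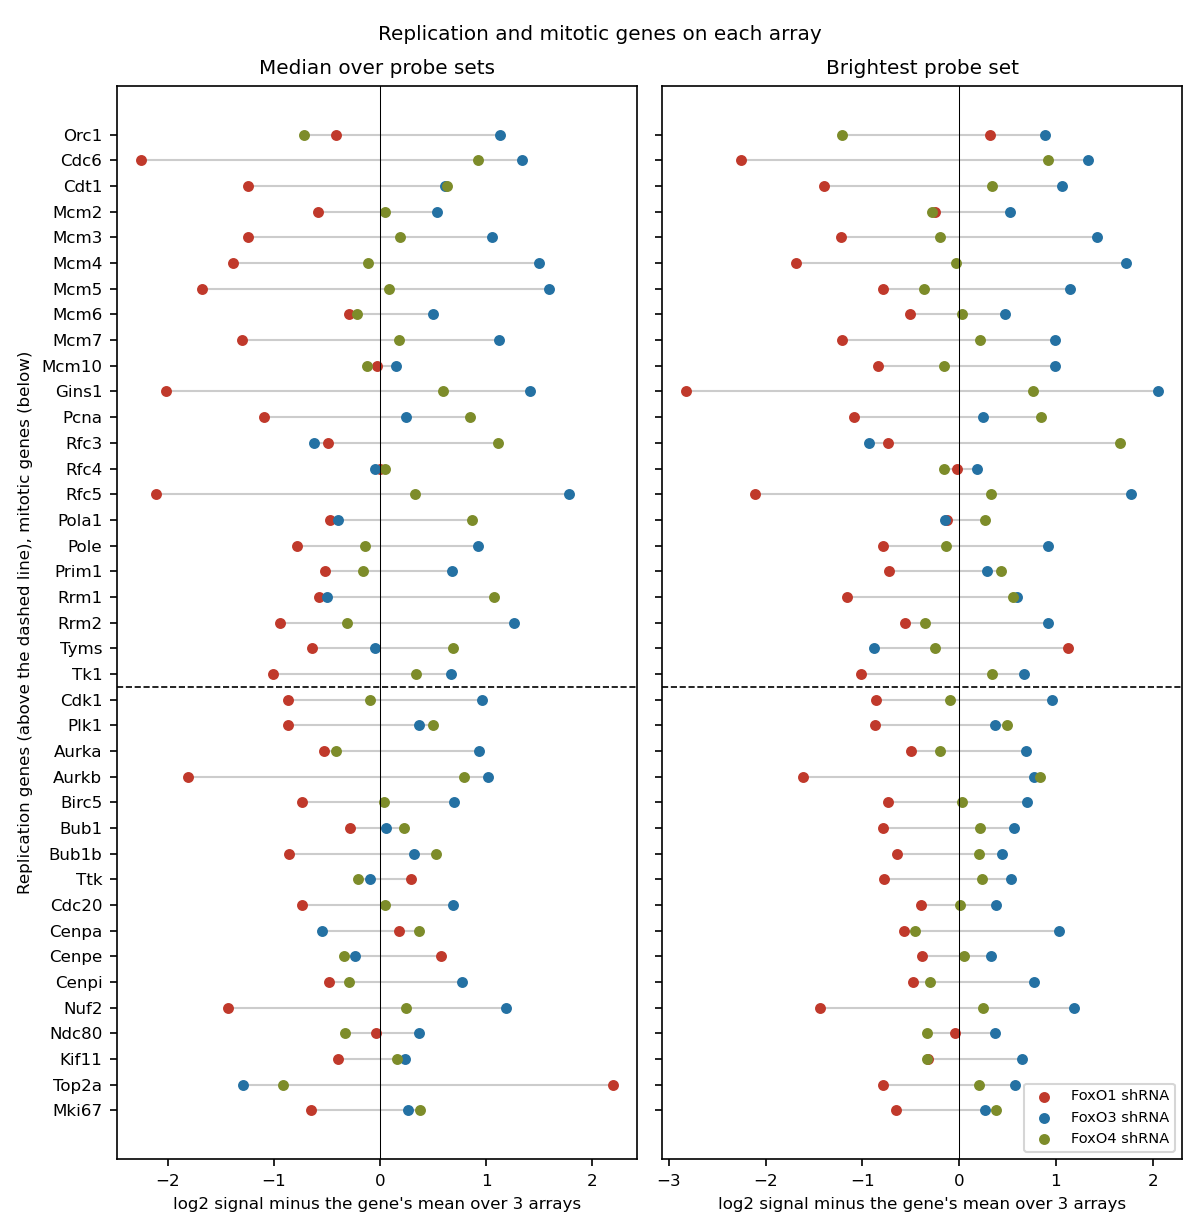
Log2 signal of each of the 39 genes on the 3 arrays (horizontal axis, as the distance from the gene's mean over the arrays), with 1 row per gene and replication genes above the dashed line. The left panel takes the median over probe sets and the right panel the brightest probe set. The FoxO1-labelled array is lowest in 30 of 39 genes on the left and in 31 on the right, and Top2a stands furthest to the right for FoxO1 in the left panel only.

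Cdk1, Plk1, Aurka, Aurkb and the aurora partner Birc5 were each at least 2-fold lower on the FoxO1-labelled array than on FoxO3, with a median of -1.46 over the 5 genes. Against FoxO4 2 of 5 were at least 2-fold lower, with a median of -0.77. Of all genes, 17.4% were lower than on FoxO3 by that much and 16.9% lower than on FoxO4. Cdk1, the kinase that starts mitosis, had 6162 on the FoxO1-labelled array, against 21819.7 on FoxO3 and 10492 on FoxO4, with differences of -1.82 and -0.77. Plk1, which acts at centrosomes and kinetochores, had 1372 on the FoxO1-labelled array, against 3244 on FoxO3 and 3542 on FoxO4, with -1.24 and -1.37. Both genes were lowest on FoxO1, while the highest array was FoxO3 for Cdk1 and FoxO4 for Plk1. Aurkb, the kinase of the chromosomal passenger complex, had 334 on the FoxO1-labelled array, against 1746 on FoxO3 and 1819 on FoxO4, and both of its probe sets were at least 2-fold lower on FoxO1 than on each other array. Birc5 (survivin), another passenger subunit, had 3268 on the FoxO1-labelled array, against 8834 on FoxO3 and 5565 on FoxO4, with -1.43 and -0.77. Aurka, the kinase of centrosomes and spindle poles, had 2099 on the FoxO1-labelled array, against 4795 on FoxO3 and 2578 on FoxO4, with -1.46 and -0.11. For Aurka and Birc5 the gap to FoxO3 was thus over 2-fold and that to FoxO4 less, all inside the spread between 2 probe sets.

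The promoters of Cdk1, Plk1, Aurka and Cdc20 are printed as mitotic genes that hold the CHR. The windows are of the same kind and build, and here capitals mark CHR motifs, TTTGAA or TTCGAA on either strand. Cdk1 lies at chr10:69352863-69353162 (minus strand), Plk1 at chr7:122159185-122159484 (plus strand), Aurka at chr2:172370521-172370820 (minus strand) and Cdc20 at chr4:118437294-118437593 (minus strand).
Cdk1: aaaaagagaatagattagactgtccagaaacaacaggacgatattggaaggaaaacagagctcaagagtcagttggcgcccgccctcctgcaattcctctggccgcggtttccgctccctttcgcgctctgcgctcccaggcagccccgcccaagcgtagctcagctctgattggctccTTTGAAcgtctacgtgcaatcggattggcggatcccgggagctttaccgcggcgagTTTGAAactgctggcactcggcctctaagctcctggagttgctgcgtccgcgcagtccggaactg
Plk1: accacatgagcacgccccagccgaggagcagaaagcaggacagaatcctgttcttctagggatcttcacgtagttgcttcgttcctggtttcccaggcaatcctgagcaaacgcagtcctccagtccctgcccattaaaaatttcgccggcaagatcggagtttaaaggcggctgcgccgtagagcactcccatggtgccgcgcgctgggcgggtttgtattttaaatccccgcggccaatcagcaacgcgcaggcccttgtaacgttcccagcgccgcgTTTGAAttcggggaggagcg
Aurka: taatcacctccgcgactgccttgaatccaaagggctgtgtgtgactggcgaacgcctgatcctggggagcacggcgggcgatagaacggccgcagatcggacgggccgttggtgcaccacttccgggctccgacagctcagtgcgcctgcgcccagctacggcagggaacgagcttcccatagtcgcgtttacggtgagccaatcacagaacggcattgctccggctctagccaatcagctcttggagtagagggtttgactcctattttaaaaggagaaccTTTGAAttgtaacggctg
Cdc20: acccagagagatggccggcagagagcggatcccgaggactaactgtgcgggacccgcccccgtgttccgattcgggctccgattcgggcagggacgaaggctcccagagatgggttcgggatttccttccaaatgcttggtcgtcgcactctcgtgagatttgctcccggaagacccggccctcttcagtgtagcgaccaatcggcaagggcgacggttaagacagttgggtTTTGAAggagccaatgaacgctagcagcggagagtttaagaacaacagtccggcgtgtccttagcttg

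Cdk1 held 2 CHR matches, at -71 and -15 from the start, and 2 E2F matches left in lower case. Plk1 and Aurka each held 1 CHR match after the start, at bases 31 and 33. In Cdc20 the match began at -18. Each of these 4 windows also held at least 1 CCAAT motif.

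Of the spindle checkpoint genes, Cdc20, the activator of the anaphase-promoting complex that the checkpoint restrains, had 6936 on the FoxO1-labelled array, against 11834 on FoxO3 and 9155 on FoxO4. All 3 of its probe sets were lower on FoxO1 than on each other array, with differences of -1.43 and -0.78, of which the first was -0.77 at the brightest. Bub1b (BubR1), a checkpoint protein that inhibits Cdc20, had 2175 on the FoxO1-labelled array, against 4622 on FoxO3 and 3907 on FoxO4, with -1.18 and -1.38, of which the second was -0.85 at the brightest. Bub1, the checkpoint kinase that recruits it, had 1197 on the FoxO1-labelled array, against 3076 on FoxO3 and 2407 on FoxO4. At that probe set Bub1 was at least 2-fold lower on FoxO1 than on both other arrays, with -1.36 and -1.01, but over both of its probe sets the differences were -0.34 and -0.51. Ttk (Mps1), the upstream checkpoint kinase, had 826 on the FoxO1-labelled array, against 2053 on FoxO3 and 1658 on FoxO4. Its second probe set was under the floor on FoxO3 and FoxO4 and read 310 on FoxO1, and the FoxO1 minus FoxO3 difference was 0.39 over both and -1.31 at the brightest.

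At the kinetochore, Nuf2, a subunit of the Ndc80 complex that binds microtubules, had 244 on the FoxO1-labelled array, against 1507 on FoxO3 and 784 on FoxO4, with differences of -2.62 and -1.68. Its partner Ndc80 had 1303 on the FoxO1-labelled array, against 1726 on FoxO3 and 1067 on FoxO4, within 2-fold for each pair of arrays. Each of these genes rests on 1 probe set. Cenpi, of the inner centromere network, had 1013 on the FoxO1-labelled array, against 2406 on FoxO3 and 1148 on FoxO4, with -1.25 and -0.18. Cenpa, the histone variant that marks centromeres, had 2701 on the FoxO1-labelled array, against 8182 on FoxO3 and 2916 on FoxO4, and Cenpe, a kinetochore motor, had 3444 on the FoxO1-labelled array, against 5637 on FoxO3 and 4633 on FoxO4. For Cenpa and Cenpe a dimmer probe set went the other way, so their sign depends on the summary. The FoxO1 minus FoxO3 difference of Cenpa was 0.72 over 3 probe sets and -1.60 at the brightest. That of Cenpe was 0.82 over 2 probe sets and -0.71 at the brightest.

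Top2a, the topoisomerase that untangles sister chromatids, showed the widest gap between summaries. Its brightest probe set read 6585 on the FoxO1-labelled array, against 17032 on FoxO3 and 13161 on FoxO4, a difference of -1.37 against FoxO3. A second probe set read 834 on FoxO1, against 74.4 on FoxO3 and 64.3 on FoxO4, and another 39.5 on FoxO1, against 32.9 on FoxO3 and 96.4 on FoxO4. The median over the 3 was therefore 3.49, and this is the 1 mitotic gene counted as higher on FoxO1. Kif11, the motor that pushes spindle poles apart, had 941 on the FoxO1-labelled array, against 1854 on FoxO3 and 940.5 on FoxO4, with -0.63 against FoxO3 and -0.55 against FoxO4, and at the brightest the FoxO1 and FoxO4 signals were nearly equal. Mki67, which coats mitotic chromosomes and is used as a proliferation marker, had 7819 on the FoxO1-labelled array, against 14743 on FoxO3 and 15971 on FoxO4, with -0.92 and -1.03 at its only probe set.

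**Figure D3:**
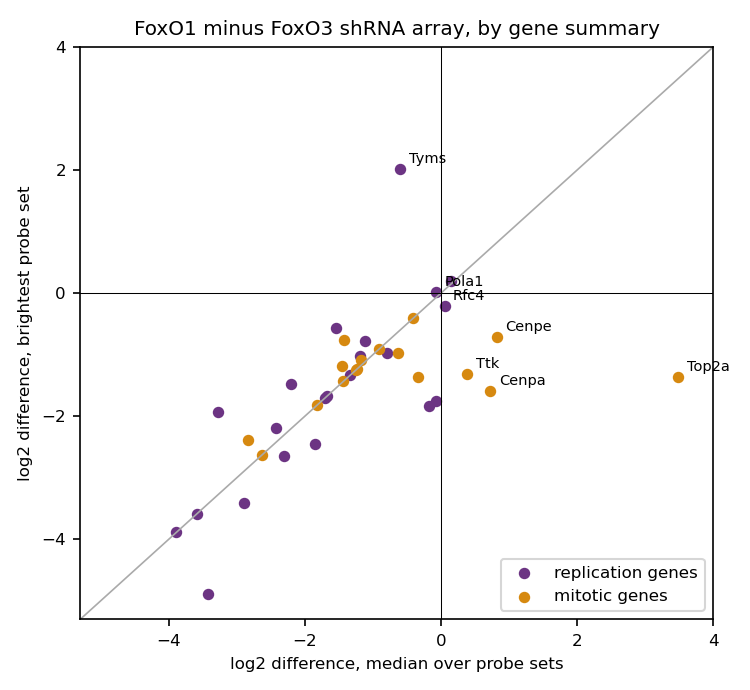
FoxO1 minus FoxO3 log2 difference of each of the 39 genes by the median over probe sets (horizontal axis) and by the brightest probe set (vertical axis), with the line of equality in grey. The 7 labelled genes change sign between summaries, with Top2a at 3.49 and -1.37, and Tyms at -0.60 and 2.01.

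Read probe set by probe set, the direction was alike in both classes. Of the 71 member probe sets above an array's median somewhere, 59 were lower on FoxO1 than on FoxO3, which is 83.1%, beside 48.5% of all 25590 such probe sets. Against FoxO4, 58 of 71 were lower, which is 81.7%, beside 48.4%. By class, 80.0% of replication and 88.5% of mitotic probe sets were lower than on FoxO3, and 82.2% and 80.8% lower than on FoxO4. Of the 27 genes with several probe sets, 12 had all of them lower on FoxO1 than on FoxO3, 1 had all higher and 14 were mixed. The 1 with all higher was Rfc3. Of the 17 replication genes among the 27, 9 had all lower and 7 were mixed. Of the 10 mitotic genes, 3 had all lower and 7 were mixed. The matching shares over all genes were not counted, so these counts have no background beside them.

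The arrays fell into 1 order more than into the others. The FoxO1-labelled array was the lowest in 30 of 39 genes, where it was the lowest in 28.3% of all genes. FoxO3 was the highest in 24 of 39, where it was in 31.0% of all genes. The full order of FoxO1 lowest, then FoxO4, then FoxO3 highest held in 21 of 39, where it held in 14.3% of all genes. By the brightest probe set the 3 counts were 31, 31 and 26, where the shares of all genes were 28.5%, 32.1% and 14.7%. Of the replication genes, 10 of 22 were at least 2-fold lower on FoxO1 than on both other arrays, and 4 of 17 mitotic genes were, where 7.94% of all genes were. By the brightest probe set these counts were 11 and 5, where 8.52% of all genes were. The 4 mitotic genes were Plk1, Aurkb, Bub1b and Nuf2. Of the 39 genes, 9 were at least 2-fold higher on FoxO3 than on FoxO4 and 3 lower, where 17.9% and 18.6% of all genes were. By the brightest probe set these counts were 12 and 1, where 18.9% and 18.3% of all genes were. FoxO3 and FoxO4 lay within 2-fold by both summaries for many genes, among them Cdc6, Cdt1, Mcm2, Mcm6, Mcm7, Tk1, Aurkb, Birc5, Cdc20 and Nuf2. The places of FoxO3 and FoxO4 in the order are not apart for such genes.

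Against the control RNAi line, the authors' deposited table put replication genes slightly low on the array labelled FoxO1. In the authors' deposited table the median ratio was -0.55 for replication genes and -0.10 for mitotic genes, beside 0.00 for all genes. There, 5 of 22 replication genes were at least 2-fold lower and 0 higher, where 17.1% of all genes were lower and 18.8% higher. The share that was lower is near the background by this summary. By the brightest probe set, 8 of 22 were lower and 1 was higher in the authors' deposited table, where 16.9% of all genes were lower and 21.2% higher. Of the mitotic genes, 4 of 17 were lower and 1 was higher in the authors' deposited table by the median over probe sets. Of all genes, 17.1% were lower and 18.8% higher by that summary, so the mitotic share that was lower is also near the background. The lower ones were Cdk1 at -1.30, Plk1 at -1.10, Aurkb at -1.40 and Nuf2 at -2.30. The higher one was Cenpi at 4.0, from a probe set that the same table calls not changed and whose derived control signal of 63.3 is below the floor of each array.

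The authors' change calls went mostly to no change. In the authors' deposited table, 6 of 52 replication probe sets were called decreased and 46 not changed, where 4.64% of all probe sets with 1 symbol were called decreased and 1.48% increased. The 6 were 3 of Mcm7 and 1 each of Cdt1, Mcm2 and Pcna. Of 32 mitotic probe sets, 5 were called decreased, 1 marginally decreased, 1 marginally increased and 25 not changed in the authors' deposited table. The decreased ones belonged to Cdk1, Plk1, Aurkb, Cdc20 and Kif11, and the marginally increased one to Mki67. That of Kif11 was under the floor on FoxO1 and FoxO3, and its brighter probe sets, at -0.6 and -0.5, were called not changed. That of Cdc20 had a ratio of -0.4, and its other probe sets, at -0.1, were called not changed.

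The FoxO3 and FoxO4 arrays had no usable ratio of their own, so a control signal was derived from the FoxO1 signal and the authors' deposited ratio. It is not a measured array, the addition was made after values were seen, and the 3 comparisons share it. By construction, a FoxO3 or FoxO4 value against it is the log2 difference from FoxO1, without the floor, added to the FoxO1 ratio. Such values are therefore not separate evidence from the differences between arrays above. By the brightest probe set, 1 of 22 replication genes was at least 2-fold higher than this control on FoxO1, 11 on FoxO3 and 7 on FoxO4, where 21.2%, 20.7% and 20.9% of all genes were. Lower by that much were 8 on FoxO1, 1 on FoxO3 and 1 on FoxO4, where 16.9%, 20.7% and 20.8% of all genes were. The medians were -0.60 on FoxO1, 0.98 on FoxO3 and 0.70 on FoxO4. For mitotic genes the medians were -0.10, 0.77 and 0.40 in the same order of arrays, with 8 of 17 at least 2-fold higher on FoxO3 and 0 lower. The genes did not sit alike around the derived control. Mcm4 was near it on FoxO1 and far above it on FoxO3, at -0.30 on FoxO1, 3.11 on FoxO3 and 1.36 on FoxO4. Mcm7 was below it on FoxO1 and close to it on FoxO4, at -1.50 on FoxO1, 0.70 on FoxO3 and -0.07 on FoxO4. Aurkb was likewise below it on FoxO1 and within 2-fold of it on the other arrays, at -1.80 on FoxO1, 0.58 on FoxO3 and 0.64 on FoxO4.

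**Figure D4:**
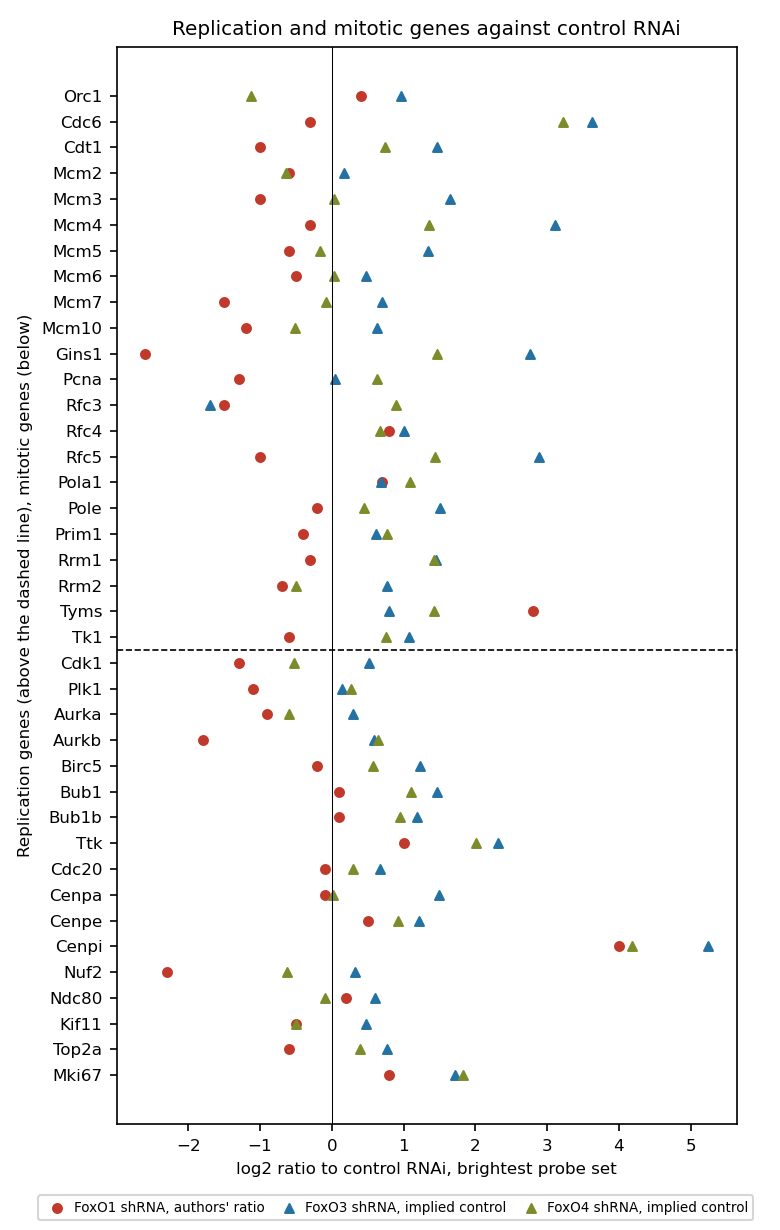
Log2 ratio of each of the 39 genes to the control RNAi line at its brightest probe set, with 1 row per gene. Circles are the authors' deposited FoxO1 ratios, and triangles set the FoxO3 and FoxO4 arrays against the control signal derived from that ratio, so all 3 share it. Replication genes have medians of -0.60 on FoxO1, 0.98 on FoxO3 and 0.70 on FoxO4, and Cenpi stands furthest to the right on all 3 arrays.

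Sequence features that the choice of genes did not use were read in the RefSeq promoter windows. A window was found for 35 of the 39 genes, 19 replication and 16 mitotic, and none for Mcm4, Gins1, Pole and Aurkb. An E2F motif was present in 13 of 19 replication genes and 2 of 16 mitotic genes, against 10.9% of all 27025 genes with a window. A CHR motif was present in 3 of 19 replication genes and 12 of 16 mitotic genes, against 21.7% of all genes. CCAAT, which binds the factor NF-Y and often stands beside the CHR, was present in 13 of 19 and 13 of 16, against 41.1%. The forkhead motif GTAAACA, the core that FoxO proteins bind, was present in 1 of 19, Mcm7, and 1 of 16, Nuf2, against 4.05%. The 2 mitotic genes with an E2F motif were Cdk1 and Mki67, and both also held a CHR. Of the replication genes, Mcm2, Mcm7 and Rfc3 held a CHR. The absence of a match says only that these letters are not in the window.

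**Figure D5:**
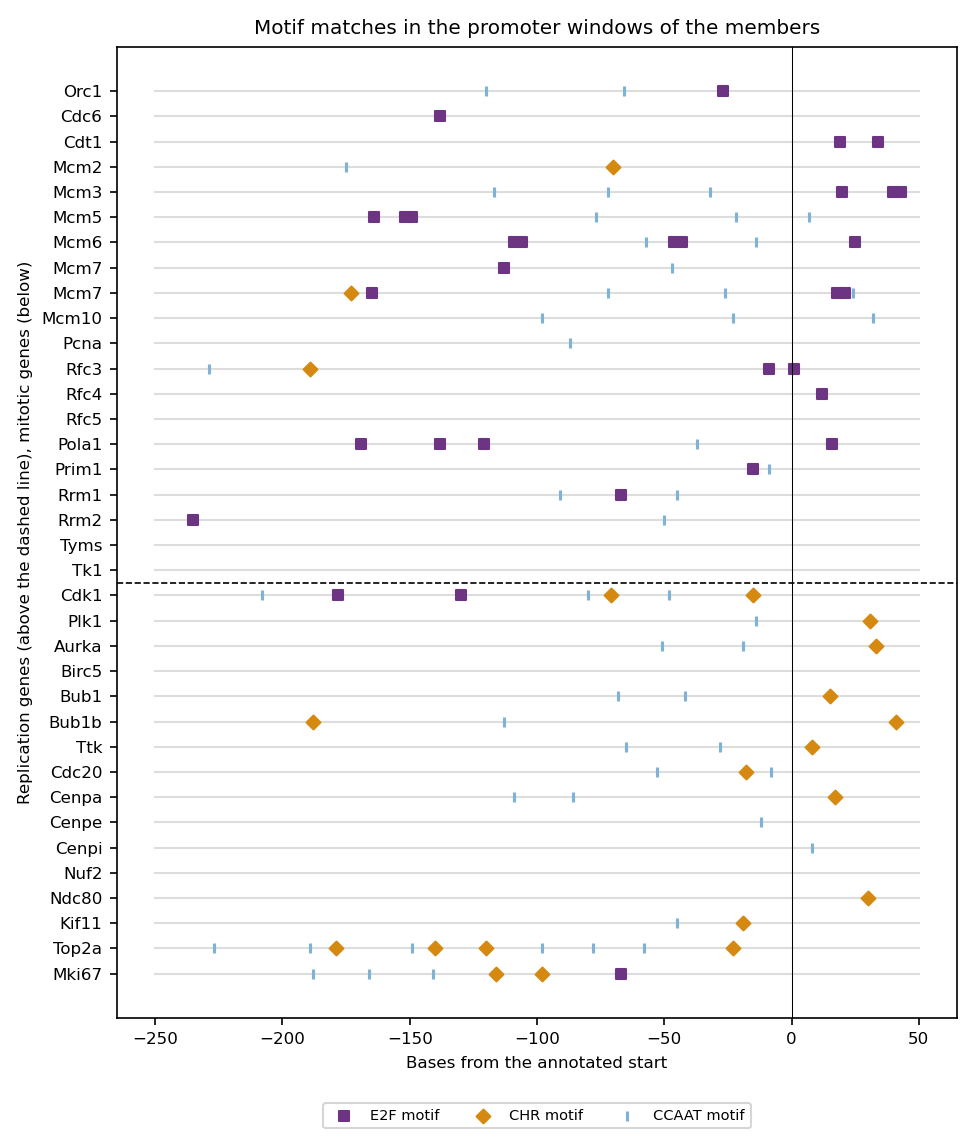
Motif matches in 36 promoter windows of 35 genes, from 250 bases before to 50 bases after the annotated start (horizontal axis, at the first base of the match), with replication genes above the dashed line. Squares are E2F motifs, with a median position of -43 in replication genes, and diamonds are CHR motifs, with a median position of -18.5 in mitotic genes. Ticks are CCAAT.

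The rest of the pathway was read from lists of genes that are not among the 39. The genes named from each list are the highest and lowest among those above an array's median whose probe sets all had 1 sign, so genes with mixed probe sets can lie further out. Of 41 measured other replication genes, 22 were at least 2-fold lower on FoxO1 than on FoxO3 and 2 higher, where 17.4% of all genes were lower and 21.3% higher, with a median of -1.06. Against FoxO4, 10 were lower and 4 higher, where 16.9% and 20.4% of all genes were, with a median of -0.37. Read at the brightest probe set, 14 were lower than on FoxO4 and 2 higher, where 16.4% and 20.1% of all genes were, with a median of -0.74. FoxO3 minus FoxO4 gave 11 higher and 3 lower, where 17.9% and 18.6% of all genes were, with a median of 0.41. The lowest such gene for FoxO1 minus FoxO3 was Pold2, an accessory subunit of polymerase delta, at 107 on the FoxO1-labelled array, against 2152 on FoxO3 and 1042 on FoxO4. Its differences were -4.34 and -3.29. Ung, which removes uracil from DNA, followed at -3.50 against FoxO3 and was itself far apart between FoxO3 and FoxO4, at 3.37. Its only probe set was under the floor on FoxO1 and, at 88.8, near the floor on FoxO4, which limits both differences. Gins2, of the GINS complex like Gins1, lay at -3.24 and -3.05, and Rpa2, of the single-strand binding complex, at -2.90 against FoxO4. The highest with probe sets of 1 sign were Pold4 at 0.81 against FoxO3, and Mcm8 at 0.25 and Pole2 at 0.08 against FoxO4, all within 2-fold. Between FoxO3 and FoxO4 the highest such genes after Ung were Pold3 at 2.06, which was 0.38 at its brightest probe set, and Uhrf1, which keeps DNA methylation through replication, at 1.90. The lowest such genes there were Pola2 at -1.54, which was -0.08 at its brightest probe set, Pold4 at -1.18 and Cdc45 at -0.48.

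Of 59 measured other mitotic genes, 26 were at least 2-fold lower on FoxO1 than on FoxO3 and 6 higher, where 17.4% of all genes were lower and 21.3% higher, with a median of -0.92. At the brightest probe set 31 were lower and 1 higher, where 18.1% and 20.8% of all genes were. Against FoxO4, 20 were lower and 5 higher, where 16.9% and 20.4% of all genes were, with a median of -0.51. FoxO3 minus FoxO4 gave 8 higher and 6 lower, where 17.9% and 18.6% of all genes were, so both shares lay below the background, with a median of 0.37. Cenpn, a centromere subunit, lay at -2.68 against FoxO3 and -2.23 against FoxO4. Anln (anillin), which builds the cleavage furrow, lay at -2.37 and Cdc25c, the phosphatase that activates Cdk1, at -2.29 against FoxO3. Against FoxO4 the lowest such gene was Smc4, of condensin, at -3.31, which was -0.45 at its brightest probe set, and Ckap2, a microtubule protein, lay at -2.42. With probe sets of 1 sign, the genes furthest the other way were the motors Kif15 at 2.69 and Kif18a at 0.65 and the centromere gene Cenpq at 0.60 against FoxO3. Against FoxO4 such genes were Ncapg at 1.53, Cenpw at 1.41, which were 0.31 and 0.97 at their brightest probe sets, and Cdc25b at 0.20. Among genes with probe sets of 1 sign, FoxO3 minus FoxO4 was highest in Ect2 at 1.75, Cdca8 at 1.54 and Prc1 at 1.42. It was lowest in Smc4 at -4.02, which was -0.02 at its brightest probe set, Kif15 at -2.51 and Cenpq at -1.55. The only probe set of Kif15 was under the floor on FoxO3, at 49.1, which limits both of the Kif15 differences given.

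Of the 29 regulators of the cycle, 7 were at least 2-fold lower on FoxO1 than on FoxO3 and 3 higher, where 17.4% of all genes were lower and 21.3% higher, with a median of -0.33. By the brightest probe set 12 were lower and 1 higher, where 18.1% and 20.8% of all genes were, with a median of -0.82. Against FoxO4 7 were lower and 4 higher, where 16.9% and 20.4% of all genes were, with a median of 0.04. FoxO3 minus FoxO4 gave 5 higher and 2 lower, where 17.9% and 18.6% of all genes were, with a median of 0.20. Tfdp1, the partner through which E2F factors bind DNA, had 1892 on the FoxO1-labelled array, against 10973 on FoxO3 and 6595 on FoxO4, with differences of -2.54 and -1.80. Mybl2, an activator of mitotic genes, lay at -2.22 and Fbxo5, an inhibitor of the anaphase-promoting complex, at -1.56 against FoxO3. Rbl2 (p130), the pocket protein of the DREAM complex, lay at -2.58 for FoxO1 minus FoxO4 and -2.03 for FoxO3 minus FoxO4, so it was highest on FoxO4. E2f4, its usual partner, lay at 0.15 for FoxO1 minus FoxO3 and -0.28 for FoxO3 minus FoxO4. Rb1 lay at 0.24 for FoxO1 minus FoxO3. Fzr1, the other activator of the anaphase-promoting complex, lay at 0.05 for FoxO1 minus FoxO3 and -0.06 for FoxO3 minus FoxO4. For FoxO1 minus FoxO4, E2f2 lay at 1.63, Tfdp2 at 1.39, which was 0.02 at its brightest probe set, Pkmyt1, which restrains Cdk1, at 1.06 and Cdk2 at -1.64, which was -0.27 at its brightest probe set. Among regulators with probe sets of 1 sign, FoxO3 minus FoxO4 was highest in the E2F repressors E2f8 at 1.40 and E2f7 at 1.21 and in Mybl2 at 0.96, which was 1.20 at its brightest probe set.

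Other measures moved between the same arrays. Myotube markers, which appear as myoblasts leave the cycle, had a summed signal of 18269 on FoxO1, against 7011 on FoxO3 and 4424 on FoxO4, with all 10 of 10 measured. None of the 10 was at the floor on FoxO1, 1 was on FoxO3 (Myh8) and 2 were on FoxO4 (Tnnc2 and Myh3). All 10 were higher on FoxO1 than on FoxO3, with a median difference of 1.71, and 9 of 10 were higher than on FoxO4, with 3.26. In the authors' deposited table, however, the same markers had a median ratio of -3.65 on FoxO1 to control, with 9 of 10 at least 2-fold lower. The 6 fibroblast markers summed to 439366 on FoxO1, against 145420 on FoxO3 and 261767 on FoxO4, with Dcn at the floor on FoxO1 only. In the FoxO1 sum, Col1a2 stood for 269397 and Col3a1 for 126648. At the brightest probe set 4 of 6 were higher on FoxO1 than on FoxO3 and 2 lower, with a median of 0.57. Against FoxO4, 5 were higher and 1 lower, with a median of 0.78. Dcn was the lowest in both, at -4.03 and -6.60. The 6 myoblast markers summed to 32693 on FoxO1, against 43074 on FoxO3 and 17313 on FoxO4, with 0 at the floor. The 3 of 5 measured osteoblast markers summed to 2427 on FoxO1, against 2337 on FoxO3 and 2252 on FoxO4, with 0 at the floor. The 2 of 4 measured adipocyte markers summed to 562.5 on FoxO1, against 370.4 on FoxO3 and 234 on FoxO4, with Adipoq at the floor on FoxO1 and FoxO4. The ratio of the 3′ to the 5′ probe set of Actb was 6.31 on FoxO1, 5.50 on FoxO3 and 3.45 on FoxO4, and that of Gapdh was 5.0, 5.90 and 2.23 in the same order. The part of any of these in the replication and mitotic differences was not tested.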

How the data were processed

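RNA of 3 C2C12 lines was measured with 1 array each. The deposited signal table holds an intensity per probe set, which on each array the authors had scaled to a 2% trimmed mean of 1000, as the values show. A second deposited table holds log2 ratios to control RNAi, in steps of 0.1, and change calls, per the file headers. GCOS is named per the submitters' processing notes, and its version is not given in the sources used here. The FoxO1 ratio followed the FoxO1 signal minus the others with r of 0.58 across 45101 probe sets, which are not independent. The 2 ratio columns of the other lines did not follow the probe set order and were not used. The control array is not analysed here.

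Probe sets with several symbols (932) or none (9211) were left out, and 34754 of the 34958 others were matched to RefSeq by Entrez ID. Signals were floored at the 20th percentile and log2 was taken. The median over a gene's probe sets gave its value. Probe sets with the endings _s_at and _x_at can take signal from related sequences. With 1 array per line no test was possible, and the number of arrays limits the precision. All 39 genes are named, and of each pathway list up to 3 highest and 3 lowest genes per pair, among those above an array's median with probe sets of 1 sign. The genes, lists and rule were chosen with earlier results of these data known. Motifs were searched on both strands. The summaries were tested on simulated data. Alternatives covered the floor, the gene summary, the probe sets, the threshold, the scaling and a signal filter. Python 3.11.15, numpy 2.4.6, pandas 2.3.3 and matplotlib 3.10.9 were used.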

Additional observations from a re-analysis of the deposited data

How the results depend on the processing

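Of the medians and counts recomputed under the alternatives, 13 counts moved by over 1.5 times and 3 medians changed sign. The other 112 were counts within 1.5 times and medians that kept their sign and lay within 1.5-fold in signal. Some of those log2 values moved by over 1.5 times, as the ranges show. The replication medians ranged from -1.86 to -1.34 for FoxO1 minus FoxO3, -1.56 to -1.02 for FoxO1 minus FoxO4, 0.27 to 0.75 for FoxO3 minus FoxO4 and -0.60 to -0.50 against control. The mitotic medians ranged from -1.44 to -0.62, -0.77 to -0.45, -0.01 to 0.37 and -0.10 to 0.28 in the same order. With only plain _at probe sets, which left 14 mitotic genes, the FoxO1 minus FoxO3 median was -0.62, the FoxO3 minus FoxO4 median -0.0071, the control median 0.28, and 5 genes were at least 2-fold lower on FoxO1 than on FoxO3. With the mean over probe sets the mitotic control median was 0.20. With the brightest probe set, 8 replication genes were at least 2-fold lower against control. The causes of these changes were not tested.

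A threshold of 1.5-fold gave 11 replication genes for FoxO3 minus FoxO4 and 11 against control, and 8 mitotic genes for FoxO1 minus FoxO4 and 7 for FoxO3 minus FoxO4. A threshold of 3-fold gave 8 replication genes for FoxO1 minus FoxO4, 2 for FoxO3 minus FoxO4 and 1 against control, and 3 mitotic genes for FoxO1 minus FoxO3, 2 for FoxO1 minus FoxO4, 0 for FoxO3 minus FoxO4 and 1 against control. A looser or stricter threshold changes a count by construction. Centring each array on its median shifted all genes by -0.26 for FoxO1 minus FoxO3, -0.21 for FoxO1 minus FoxO4 and 0.04 for FoxO3 minus FoxO4, and quantile normalization by -0.15, -0.11 and 0.03. The differences above are on the authors' scaling, and under quantile normalization the mitotic FoxO1 minus FoxO3 median was -1.13. Signals near the floor have no order, which limits 12 of 52 replication and 6 of 32 mitotic probe sets on at least 1 array. No paired analysis was possible because each line has 1 array and no replicate number is shared.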
